A study of Mus musculus with 6 samples.

Results

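Klf15, Klf9 and Glul were examined in the ventricles of mice that lack miR-125b-1 in cardiomyocytes. They are 3 of the 215 genes that could be named in the deposited table, and every probe set annotated by the array platform to one of them was kept, which gave 4 of 271 probe sets. Klf15 and Klf9 had 1 probe set each and Glul had 2. RNA came from whole ventricles at postnatal day 1 (P1), with 3 Affymetrix mouse genome arrays for each genotype. Wild-type mice were aMHC-Cre; 125b1+/+ and knockout mice were aMHC-Cre; 125b1f/f, so both groups carried the Cre transgene and differed in the floxed allele. The Myh6 (aMHC) promoter drives Cre in cardiomyocytes, so that other cells of the ventricle keep the locus, and the second locus for mature miR-125b, miR-125b-2, is intact in both groups. Floxed mice without Cre were not among the arrays. The paper describes the arrays as independent experiments and does not state whether an array holds 1 pup or a pool.

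Klf15 and Klf9 are Krüppel-like transcription factors, which bind GC-rich and CACCC sequences through zinc fingers at the C-terminal end of the protein. Both are known to be induced by glucocorticoids through the glucocorticoid receptor. Klf15 is known in the heart as a restraint on hypertrophic growth and as an activator of amino acid and lipid use, and Klf9 is also known as a gene induced by thyroid hormone. Glul encodes glutamine synthetase, which joins ammonia to glutamate to form glutamine, and it is a classical glucocorticoid-induced gene of muscle. Circulating glucocorticoids normally rise around birth and take part in the maturation of the fetal heart. Hormone levels are not analysed here.

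The deleted microRNA is shown because it is the single planned difference between the groups. RefSeq (GRCm38.p6) places its main mature strand at chr9:41581940-41581961 and the other strand at chr9:41581980-41582001, both on the plus strand. Capitals mark the seed, bases 2 to 8.
mmu-miR-125b-5p: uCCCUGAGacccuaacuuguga
mmu-miR-125b-1-3p: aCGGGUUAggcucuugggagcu

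The members were chosen by their measured difference between these same arrays, and the deposited table is itself a selection on that difference. Its smallest difference between group means was 1.00 on the log2 scale, and no unchanged probe set is in it. All values below are therefore a description, and no test was run on them. All 4 probe sets of the 3 genes were higher in the knockout with no overlap between the groups. The same held for 67.5% of the table (183 of 271 probe sets), and the other 88 were lower without overlap. A change in the number of cells of a type and a change in RNA per cell cannot be told apart in RNA from whole ventricles.

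The probe set of Klf15 read 127, 110 and 148 on wild-type arrays 1 to 3, in units of linear intensity. It read 709, 719 and 824 on the knockout arrays. The lowest knockout array was thus 4.79 times the highest wild-type array, and the groups were far apart. The mean intensity was 128 ± 19.1 in the wild-type and 750.4 ± 63.7 in the knockout (SD, n = 3 each), a 5.87-fold difference in the means of log2 intensity, or 2.55 ± 0.14 (SE) on the log2 scale. Of the 183 higher probe sets Klf15 stood at rank 6 by this difference, with Ptgds (2.70) just above and a probe set of Dpep1 (2.53) just below. The wild-type arrays of Klf15 were the most scattered of the 3 genes, with the highest 1.35 times the lowest. Its SD over replicates was 0.17 on the log2 scale, above that of 74.2% of the table.

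Klf9 had the smallest difference of the 3 genes. Its intensity was 1252, 1072 and 1205 on the wild-type arrays. The knockout arrays read 2624, 2441 and 2839. The lowest knockout array was 1.95 times the highest wild-type array. The means were 1176 ± 93.2 and 2634 ± 199 (SD, n = 3 each), which is 2.24-fold higher in the knockout, or 1.16 ± 0.09 (SE) on the log2 scale. Klf9 stood at rank 141 of the 183 higher probe sets, between Cdpf1 (1.17) and Ggt5 (1.16), in the part of the table close to its lower limit. Its SD over replicates, 0.11 on the log2 scale, was near the table's median of 0.13.

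Glul was measured by 2 probe sets, whose names end in _a_at, a suffix that marks probes shared by alternative transcripts of a single gene. The brighter one read 654, 772 and 758 on the wild-type arrays. On the knockout arrays it read 2972, 2608 and 2781. Its means were 728 ± 64.5 and 2787 ± 182 (SD, n = 3 each), a 3.83-fold difference at rank 31, or 1.94 ± 0.09 (SE) on the log2 scale, between Scara5 (1.95) and Pnpla7 (1.92). The dimmer probe set of Glul had the larger difference. It read 132, 132 and 138 on the wild-type arrays, the tightest group among the 4 probe sets. It read 1095, 1106 and 971 on the knockout arrays. The means were 134 ± 3.52 and 1057 ± 74.8 (SD, n = 3 each), which is 7.86-fold higher, or 2.97 ± 0.06 (SE) on the log2 scale. This placed it at rank 3 of the higher probe sets, below Myh7 (3.43), the β-myosin heavy chain gene, and above a probe set of Tfdp2 (2.88).

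**Figure D1:**
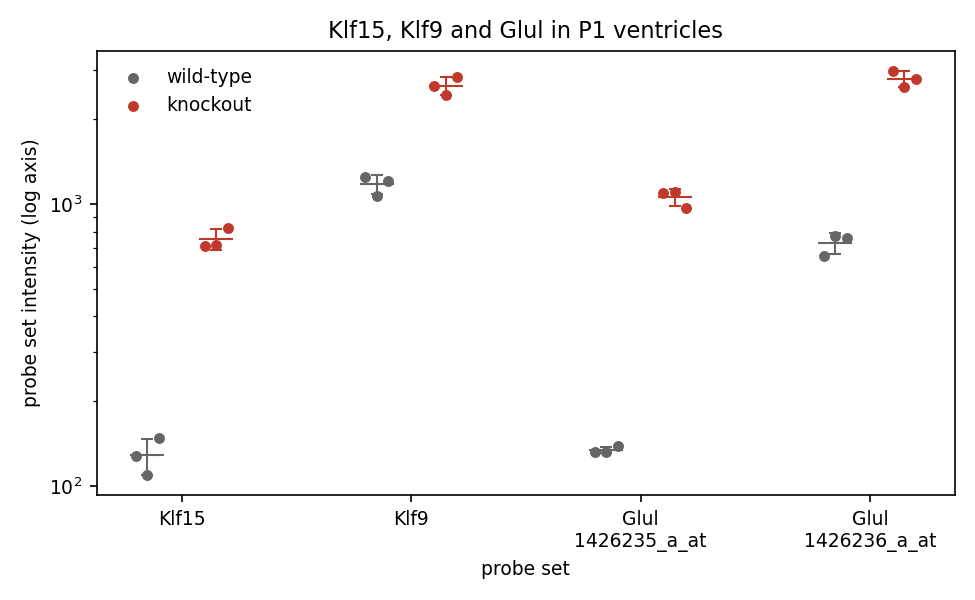
Probe set intensity (log axis) of Klf15, Klf9 and the 2 probe sets of Glul on 3 wild-type arrays (grey points) and 3 knockout arrays (red points). Horizontal bars give group means and error bars give SDs. All knockout points lie above all wild-type points of the same probe set, with the nearest approach in Klf9, where the lowest knockout array is 1.95 times the highest wild-type array.

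**Figure D2:**
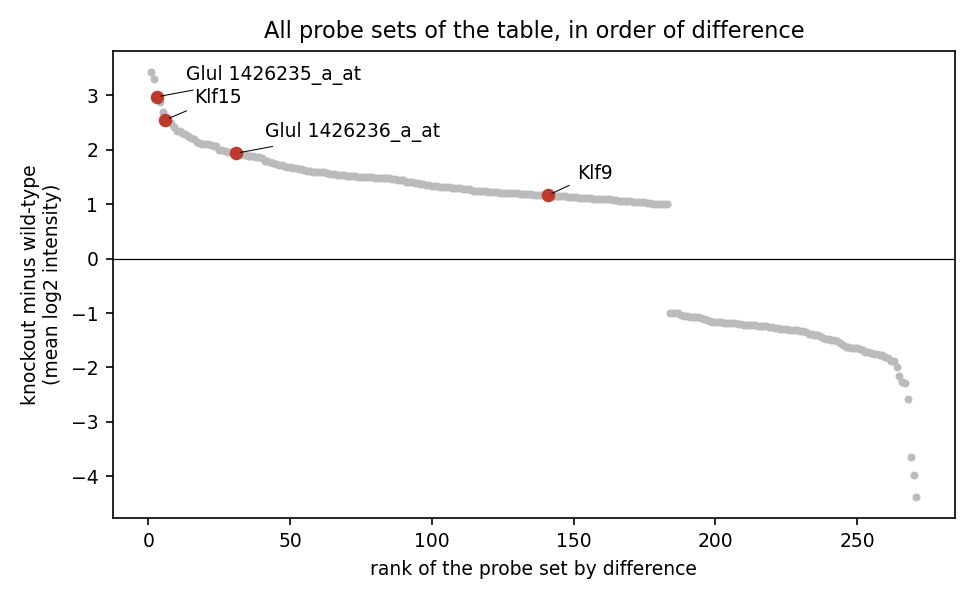
Knockout minus wild-type difference of mean log2 intensity (y axis) for the 271 probe sets in order of size (x axis, rank), with the probe sets of Klf15, Klf9 and Glul in red. The dimmer probe set of Glul is at rank 3, Klf15 at rank 6, the brighter probe set of Glul at rank 31 and Klf9 at rank 141, and no point lies between -1 and 1.

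The direction was the same in both Glul probe sets while the size was not. On the wild-type arrays the dimmer one lay below the brighter one by 2.31, 2.54 and 2.45 on the log2 scale. On the knockout arrays the distance was 1.44, 1.24 and 1.52. The distance was shorter on every knockout array than on any wild-type array, and the 2 changes differed by 1.04 ± 0.11 (SE) on the log2 scale, or 2.05-fold. Of the 32 genes with several probe sets in the table, Glul had the second widest range of differences, after Decr1 (1.20), and the median range was 0.20. Which of the values is nearer to the change of the Glul transcript cannot be told from the table, and why they differ was not tested.

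Differences between genes in the size of the change can be read within each array, where a scaling factor common to the array cancels. An amount added to every intensity does not cancel. With an offset of 50 before the log, the change was 2.17 for Klf15 and 1.13 for Klf9 on the log2 scale. It was 1.87 for the brighter and 2.58 for the dimmer Glul probe set. The distances below are without an offset. Klf15 lay below Klf9 by 3.03 to 3.30 on the log2 scale on the wild-type arrays and by 1.76 to 1.89 on the knockout arrays, so the change of Klf15 exceeded that of Klf9 by 1.39 ± 0.10 (SE) on the log2 scale. This is a 2.62-fold larger change, and the 2 sets of arrays did not overlap. The change of Klf15 exceeded that of the brighter Glul probe set by 0.62 ± 0.18 (SE) on the log2 scale. Against the dimmer Glul probe set the change of Klf15 was smaller, with a difference of -0.42 ± 0.17 (SE), and the distance between them overlapped between the groups, at -0.27 to 0.10 in the wild-type and -0.63 to -0.24 in the knockout. The order of Klf15 and Glul thus depends on which probe set stands for Glul. The change of Klf9 was smaller than that of the brighter Glul probe set, with a difference of -0.77 ± 0.15 (SE). These distances describe unequal change and not the relative amount of the transcripts.

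The members did not follow a single array within a group. Klf15 and Klf9 were both lowest on wild-type array 2, by -0.21 and -0.13 from their group means of log2 intensity, and both highest on knockout array 3, at 0.14 and 0.11. The brighter Glul probe set was highest on wild-type array 2, at 0.09, and the dimmer one was lowest on knockout array 3, at -0.12. The median deviation over the table was between -0.02 and 0.02 on every array. The largest deviation of a member was 0.21 in size, against differences between genotypes of 1.16 and more. Every probe set of the table has groups that do not overlap, so this contrast does not set the members apart.

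The size of each difference between genotypes depended in part on the scaling of the arrays. The median log2 intensity over the table was greater by 0.54 on the knockout arrays, and whether this reflects the selection or the scaling cannot be told from selected probe sets. With each array centred on its median, Klf15 was 4.04-fold, Klf9 1.54-fold, and the dimmer and brighter Glul probe sets 5.40 and 2.63-fold higher in the knockout. After quantile normalization the folds were 3.79, 1.52, 5.03 and 2.50. The groups stayed apart, with the knockout higher, in all 4 probe sets under both scalings. The same held for 67.5% of the table after centring and for 67.2% after quantile normalization. Klf9 was the closest of the 4, at 0.39 on the log2 scale between its lowest knockout and highest wild-type array after quantile normalization. Klf9 then fell short of a log2 difference of 1, at 0.62 and 0.60, whereas the other 3 probe sets stayed above it, as did 66 and 65 of the 183 higher probe sets of the table.

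**Figure D3:**
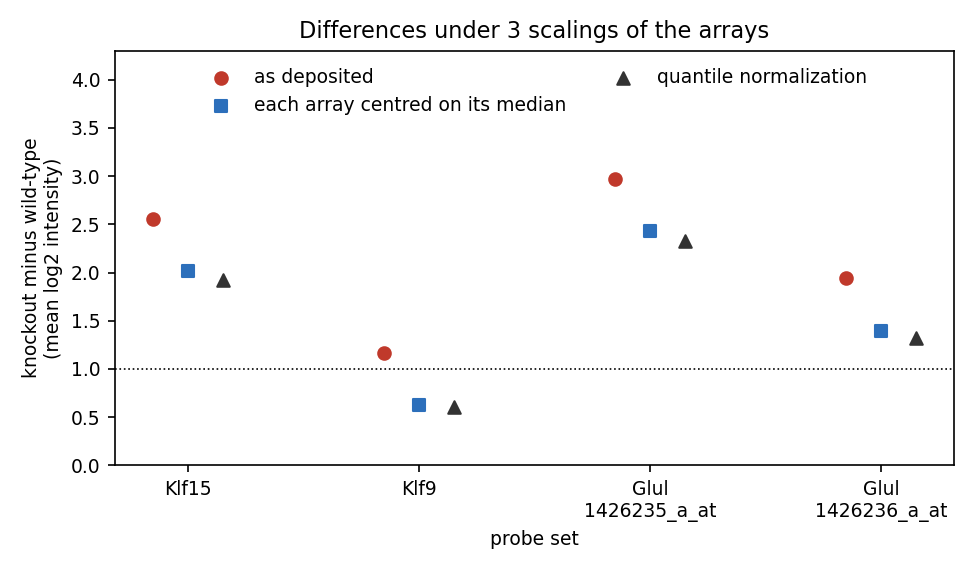
Knockout minus wild-type difference of mean log2 intensity (y axis) for the 4 probe sets as deposited (circles), with each array centred on its median (squares) and after quantile normalization (triangles), with a dotted line at 1. All points are above 0, and Klf9 drops from 1.16 to 0.62 and 0.60, below the line.

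The promoters of the 3 genes are shown because the genes share a known inducer, the glucocorticoid receptor. Each is the stretch from 250 bases before to 10 bases after the annotated start in RefSeq (GRCm38.p6), on the plus strand. Klf15 (chr6:90461043-90491803) has 2 curated transcripts, and the start used here lies inside the gene's span. Klf9 lies at chr19:23141226-23168129 and Glul at chr1:153899929-153909723, with 1 curated transcript each. The stretches are chr6:90462326-90462585 for Klf15, chr19:23140976-23141235 for Klf9 and chr1:153899679-153899938 for Glul. Capitals mark matches on either strand to the motifs searched.
Klf15: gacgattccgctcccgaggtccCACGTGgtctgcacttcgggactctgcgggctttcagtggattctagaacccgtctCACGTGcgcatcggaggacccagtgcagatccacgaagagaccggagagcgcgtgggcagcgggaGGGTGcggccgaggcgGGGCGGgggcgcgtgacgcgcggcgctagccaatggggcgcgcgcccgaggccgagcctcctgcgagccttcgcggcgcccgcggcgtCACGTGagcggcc
Klf9: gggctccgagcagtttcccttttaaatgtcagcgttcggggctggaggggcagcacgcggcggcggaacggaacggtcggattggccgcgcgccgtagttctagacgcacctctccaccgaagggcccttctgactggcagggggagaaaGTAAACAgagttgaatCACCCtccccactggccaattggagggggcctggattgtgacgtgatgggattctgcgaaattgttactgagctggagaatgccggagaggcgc
Glul: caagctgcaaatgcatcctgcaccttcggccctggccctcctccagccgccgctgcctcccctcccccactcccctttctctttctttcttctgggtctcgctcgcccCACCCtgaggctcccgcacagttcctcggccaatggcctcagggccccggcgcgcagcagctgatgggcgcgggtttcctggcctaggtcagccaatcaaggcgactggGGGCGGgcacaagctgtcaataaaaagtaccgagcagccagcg

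The single recognition element of the glucocorticoid receptor, AGAACA on either strand, had no match in any of these windows. It occurs in 16.7% of the 32851 promoter windows of the same length, and a pair of these elements facing each other across 3 bases occurs in 3 windows. The receptor often binds far from gene starts, and such regions were not searched. The E-box CACGTG, the core sequence bound by clock and Myc family factors, occurs in 6.34% of windows and had 3 matches in Klf15, at positions -228, -172 and -3 from the start. Of all windows 24 (0.0731%) hold at least 3. The E-box had no match in the other two promoters. The FoxO core TGTTTAC, which 3.30% of windows hold, had 1 match in Klf9 on the reverse strand at -100 and none in Klf15 or Glul. The GC box GGGCGG, bound by Sp and Klf proteins, was found once in Klf15 at -91 and once in Glul at -33, and it occurs in 33.4% of windows. A CACCC box was found once in each promoter, and 53.2% of windows hold it. The windows were richer in G and C than the median promoter (52.3%), at 72.3% in Klf15, 65.4% in Glul and 60.4% in Klf9. A match shows only that these letters are present.

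The other genes of the glucocorticoid response were counted next. The list had 41 genes besides the members, from the receptor Nr3c1 to such widely used markers of its activity as Fkbp5, Tsc22d3, Per1 and Zbtb16. Of these, 3 are in the table, and 2 were higher and 1 lower in the knockout. Of all 215 named genes 143 were higher and 72 lower, a similar share. The median log2 difference of the 3 was 1.48, which is the value of Foxo3, beside 1.14 for all named genes. Foxo3, a forkhead factor that insulin signaling keeps out of the nucleus, read 400.1, 409 and 358 on the wild-type arrays and 1133, 1087 and 1033 on the knockout arrays, which is 2.79-fold higher. Sesn1, a stress-induced sestrin, read 603, 547 and 577 against 1999, 2128 and 2319, which is 3.73-fold higher. This is the brightest of its 4 probe sets, whose log2 differences ran from 1.90 to 2.30. Angptl4, a secreted inhibitor of lipoprotein lipase that glucocorticoids and fasting are known to induce, went the opposite way to Klf15, Klf9 and Glul. It read 808, 554 and 544 on the wild-type arrays and 52.3, 48.2 and 49.6 on the knockout arrays, a 12.5-fold lower level. The probe sets read here for Angptl4 and Sesn1 both have the suffix _s_at, which marks probes shared between transcripts. Values for the remaining 38 listed genes are not analysed here, and the direction of the response as a whole cannot be given.

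For glutamine and glutamate, 1 of 34 listed genes is in the table. Ppat, which uses glutamine in the first committed step of purine synthesis, had a mean of 117 ± 14.3 in the knockout and 53.2 ± 4.64 in the wild-type (SD, n = 3 each), which is 2.19-fold higher. The table holds 2 of 29 genes of amino acid breakdown, each higher in the knockout. Kyat3, a kynurenine and glutamine aminotransferase, went from 137 ± 6.19 to 603 ± 87.4 (SD, n = 3 each), a 4.39-fold difference. Aldh6a1, a mitochondrial dehydrogenase of valine breakdown, was 2.67-fold higher. Of 23 clock genes Rora, a nuclear receptor that activates Bmal1 transcription, is in the table. Its dim probe set went from 44.2 ± 8.62 to 162 ± 22.8 (SD, n = 3 each), a 3.70-fold difference. Of 21 thyroid hormone genes 2 are in the table. Myh7, which thyroid hormone represses and which the paper counts among its cardiac stress markers, was 10.8-fold higher. The malic enzyme gene Me1, which thyroid hormone induces, was 2.92-fold lower. Klf9, also known to be thyroid hormone-induced, was higher, but it was chosen for its difference. Myh7 and Me1 are likewise in the table only through a selection on their difference. Thyroid hormone action was not tested. None of the 24 other Klf and Sp genes listed is in the table. With 67.5% of all probe sets on the higher side, these counts set no list apart.

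**Figure D4:**
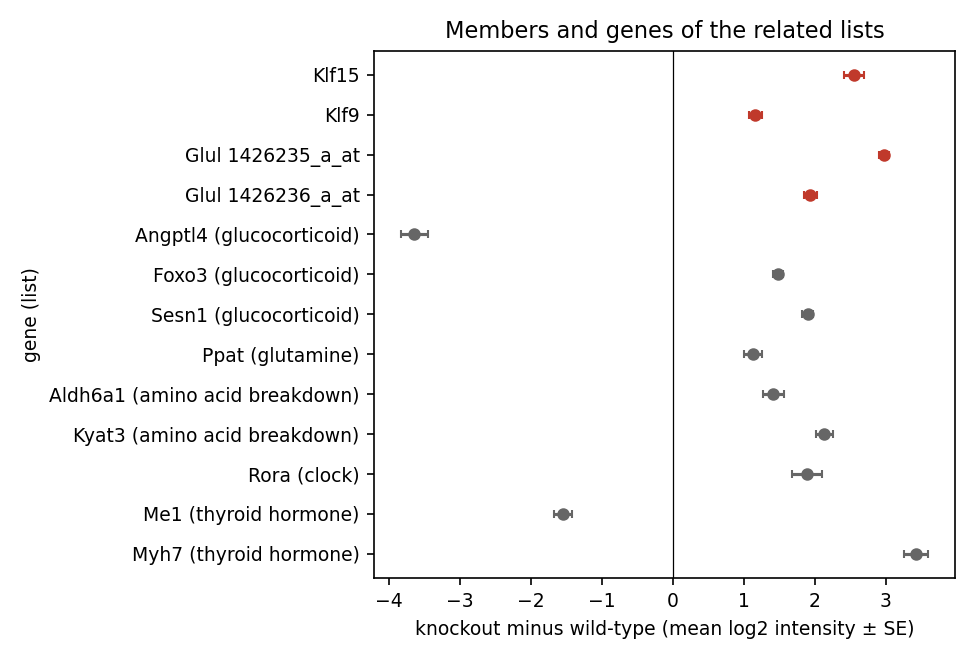
Knockout minus wild-type difference of mean log2 intensity (x axis, with SE from the SDs of 3 arrays per group) for the 4 probe sets of Klf15, Klf9 and Glul (red) and for the genes of the related lists that are in the table (grey, list in brackets). Angptl4 and Me1 lie on the lower side, at -3.64 and -1.55, and all others on the higher side.

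Genes were also ranked by how closely their values over the 6 arrays followed those of a member, as the root mean square difference of log2 intensities after each probe set was set to a mean of 0. With the difference between genotypes so large, likeness here is mainly likeness of its size. Nearest to Klf15 were Tfdp2 and Dpep1 (0.21 each), followed by Snhg16, Snhg1 and Fam107a (0.25 each). Nearest to Klf9 were Mturn (0.04), Retreg1, Fcgr3 and Pdcd2 (0.06 each) and Trp53inp1 (0.07). Nearest to the brighter Glul probe set were Snhg6 (0.08), Abcg1 (0.10), Snhg1 (0.12), Kyat3 (0.14) and Zfas1 (0.15). How near Glul was to Klf15 depended on the probe set, at place 18 with 0.36 for the brighter one and at place 8 with 0.27 for the dimmer one, which was added after the values were seen. Klf9 was at place 96 from Klf15 with 0.70. Places differed with the gene the order started from. Klf15 was at place 74 from the brighter Glul probe set and at place 2 from the dimmer one. From Klf9, Klf15 was at place 140, and the brighter and dimmer Glul probe sets were at places 125 and 141.

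Of 45 marker genes listed for 9 cell types, 2 had a probe set to read, each with less signal in the knockout. They are the fibrillar collagen gene Col3a1 of fibroblasts, by 2.14-fold, and the lipid droplet gene Cidea of adipocytes, by 3.38-fold. Each was 1 marker of those listed for its cell type, 6 for fibroblasts and 4 for adipocytes. Both could be read only through the selection on their difference. Among all 215 named genes, 72 were lower in the knockout. A loss of fibroblasts or adipocytes was not tested. No listed marker of cardiomyocytes, endothelium, smooth muscle, blood or nerve is in the table, so the tissue could not be checked against its defining markers. The transcript of the deleted locus is not analysed here either, which leaves the genotype labels of these arrays without a check here. By qPCR of neonatal ventricles the paper reports a near-complete loss of the primary miR-125b-1 transcript and a reduction of mature miR-125b. Whether the makeup of the ventricles moved with Klf15, Klf9 and Glul was not tested.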

How the data were processed

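Gene expression was measured on 6 single-colour Affymetrix mouse genome arrays of P1 ventricles, 3 per genotype. RNA extracted with Trizol was cleaned on columns before a service laboratory ran the arrays. Values were deposited as linear intensities of probe sets (30.1 to 18292), and how they were summarized and normalized is not given in the sources used here. The authors selected genes in GeneSpring GX with cutoffs on log2 fold change and p. The table analysed here holds 271 probe sets, all with log2 differences of at least 1.00.

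Log2 was taken after a floor of 1, under which no value lay. Group means, SDs and the SE of a difference (from both SDs) were computed in Python 3.11.15 with pandas 2.3.3, and the computation was tested on simulated data. The number of arrays limits the precision, and nothing shows that each holds a separate animal. Gene names came from the platform annotation and were matched by gene number to RefSeq of GRCm38.p6. There were 253 with 1 gene, 3 with several and 15 with none. A listed gene was represented by its brightest probe set.

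The members, the 6 gene lists, the markers and the motifs were chosen with earlier results of these data known. Genes were named if they were members, neighbours of a member in the order of differences, among the 5 nearest in pattern, or listed. Alternatives were other scalings, averages and an offset, the mean over the probe sets of a gene, leaving out each array, and dropping the _x_at and _s_at probe sets.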

Additional observations from a re-analysis of the deposited data

How the results depend on the processing

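The probe sets of Klf15, Klf9 and Glul were higher in the knockout under every alternative run. The direction does not set them apart, since 183 probe sets of the table were higher as deposited and under both other scalings. With groups that do not overlap, leaving out an array cannot reverse it. Differences in this paragraph are knockout minus wild-type on the log2 scale. Centring each array on its median gave 2.01 for Klf15, 0.62 for Klf9, 2.43 for the dimmer and 1.40 for the brighter Glul probe set, and quantile normalization gave 1.92, 0.60, 2.33 and 1.32. These scalings take a similar amount from every probe set. An offset of 50 before the log gave 2.17 for Klf15 and 2.58 for the dimmer Glul probe set, which are the dimmest of the 4 and lose most by construction. The mean over both Glul probe sets was 2.46. The ratio of arithmetic means and the difference of medians moved no member by more than its SD over replicates. Leaving out each array in turn gave 2.45 to 2.66 for Klf15, 1.10 to 1.22 for Klf9, 2.94 to 3.03 for the dimmer and 1.86 to 1.98 for the brighter Glul probe set. By rank after quantile normalization Klf15 moved from 6 to 9, Klf9 from 141 to 149, and the Glul probe sets from 3 to 4 and from 31 to 39. Without the _x_at and _s_at probe sets, 0 genes of the glucocorticoid list were lower, since Angptl4 has no other probe set in the table, and the other list counts did not change. Arrays of the 2 groups share the numbers 1 to 3, which nothing in the labels ties to a litter or batch, and deviations from the group means correlated at -0.02, 0.01 and 0.08 over the table between arrays of the same number. Chosen after seeing the data, the differences between arrays of the same number were 2.48 to 2.71 for Klf15, 1.07 to 1.24 for Klf9, 2.81 to 3.06 for the dimmer and 1.76 to 2.18 for the brighter Glul probe set.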
